A study of Homo sapiens with 12 samples.

Results

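The genes described here are 38 markers and regulators of early neuronal differentiation, listed by name and found by symbol among the 65969 gene identifiers of the count table. They were taken in 5 role classes: 14 transcription factors, 4 RNA-binding proteins, 13 genes of the cytoskeleton and growth cone, 2 adhesion molecules, and 5 synaptic and secretory genes. All 38 passed the filter on low counts and were tested among 24898 genes. No measured value entered the list, but it was drawn up with earlier results of these data known.

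RNA came from embryoid bodies, the aggregates that pluripotent cells form in suspension, of H1 and MEL1, both established human embryonic stem cell lines. Every line carried a lentiviral, doxycycline-inducible short hairpin and had been selected with puromycin. The hairpin was SCR, the control, or KD1, KD2 or KD3, each aimed at METTL14, a subunit of the enzyme that places N6-methyladenosine on RNA. All groups, controls included, were seeded at 500 cells per microwell and received doxycycline at 2 µg/ml until harvest at day 10. H1 gave 2 libraries each of SCR, KD1, KD2 and KD3. MEL1 gave 1 SCR, 2 KD1 and 1 KD2 library, and no KD3 library. No label says whether libraries of a group came from separate cultures, so p-values measure the spread between these libraries, which may be technical.

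Libraries held 36609628 to 43508287 estimated counts, except MEL1 SCR with 15963241. Levels are given as CPM, counts relative to library size after scaling between libraries. METTL14 was lower with knockdown in each line, by a log2 of -1.54 (SE 0.18, adjusted p 0.00228) in H1 and -2.66 (SE 0.27, adjusted p 0.004) in MEL1. All 8 pluripotency markers had a mean of at least 1 CPM over the 12 libraries. Their summed level was 1189 to 1408 CPM in H1 and 2347 to 3987 CPM in MEL1. Single markers differed unevenly at matched hairpins: POU5F1 and NANOG were 13.1-fold and 15.3-fold higher in MEL1, and LIN28A 1.71-fold. Among 8 endocrine pancreas markers, 3 were at 0 in every library, and the sum was at most 15.9 CPM. Hepatic and gut endoderm markers summed to at most 2.15 CPM in H1 and 15.5 CPM in MEL1.

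Neurogenesis starts when proneural basic helix-loop-helix factors such as NEUROG2 drive a progenitor out of division. They switch on a second tier, including NEUROD1, NEUROD4, NHLH1 and the zinc finger factor INSM1. Postmitotic neurons then accumulate neuronal RNA-binding proteins of the ELAVL family, neuron-specific tubulin, microtubule regulators, neurofilaments and growth cone proteins. Proteins of transmitter and peptide release follow. In non-neuronal cells many of these genes are held down by the repressor REST.

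Basic helix-loop-helix factors bind the E-box, CANNTG, and so the stretch before the start is shown for the gene that opens the cascade (NEUROG2), for a second-tier factor (NHLH1) and for an intermediate filament gene that fell with knockdown in H1 (INA). Each run is the 250 bases before the RefSeq start on GRCh38.p14, read 5′ to 3′ on the gene's strand, with E-boxes in capitals. NEUROG2 is at chr4:112516181-112516430 on the minus strand, NHLH1 at chr1:160366821-160367070 on the plus strand, and INA at chr10:103276888-103277137 on the plus strand.
NEUROG2: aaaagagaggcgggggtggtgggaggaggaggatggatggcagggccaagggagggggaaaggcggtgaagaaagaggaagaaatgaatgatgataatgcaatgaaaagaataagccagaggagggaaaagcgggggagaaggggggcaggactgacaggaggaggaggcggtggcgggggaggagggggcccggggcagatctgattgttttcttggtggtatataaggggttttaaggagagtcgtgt
NHLH1: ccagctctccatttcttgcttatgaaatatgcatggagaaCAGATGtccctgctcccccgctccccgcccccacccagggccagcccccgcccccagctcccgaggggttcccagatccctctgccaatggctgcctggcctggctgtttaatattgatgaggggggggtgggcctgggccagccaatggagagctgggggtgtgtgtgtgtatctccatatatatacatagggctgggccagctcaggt
INA: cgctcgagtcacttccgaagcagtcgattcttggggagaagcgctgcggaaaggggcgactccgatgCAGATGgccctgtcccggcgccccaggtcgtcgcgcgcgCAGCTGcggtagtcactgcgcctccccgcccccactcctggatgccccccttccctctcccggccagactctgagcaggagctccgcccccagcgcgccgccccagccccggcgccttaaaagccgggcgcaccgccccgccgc

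The NEUROG2 window holds no E-box, the NHLH1 window holds 1 and the INA window holds 2. The RefSeq promoter table matched 26 of the 38 genes by symbol, with 63 start sites. Of these windows 65.1% held CANNTG on either strand, against 61.8% of all 35116 windows of that length. The form CAGATG was in 20.6% against 12.2%, and CAGCTG in 27.0% against 14.0%. Both are also CANNTG matches. Start sites of 1 gene were counted separately: the 13 CAGATG windows came from 9 genes and the 17 CAGCTG windows from 13. These are counts of letters in a window, not of bound sites.

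METTL14 acts on RNA, so the letters GGACT, a frequent context of N6-methyladenosine, were counted in the sense strand of the longest protein-coding GENCODE 29 transcript of each gene. The 38 genes had a median of 0.702 per kilobase, with a range of 0 to 1.75. The median of 16333 tested coding genes was 0.937. The 5 genes that fell with knockdown in H1 had a median of 0.526 (range 0.31 to 1.49, with STMN2 at 1.35 and NEFM at 1.49) and the other 33 had 0.721. No methylation was measured here.

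**Figure D1:**
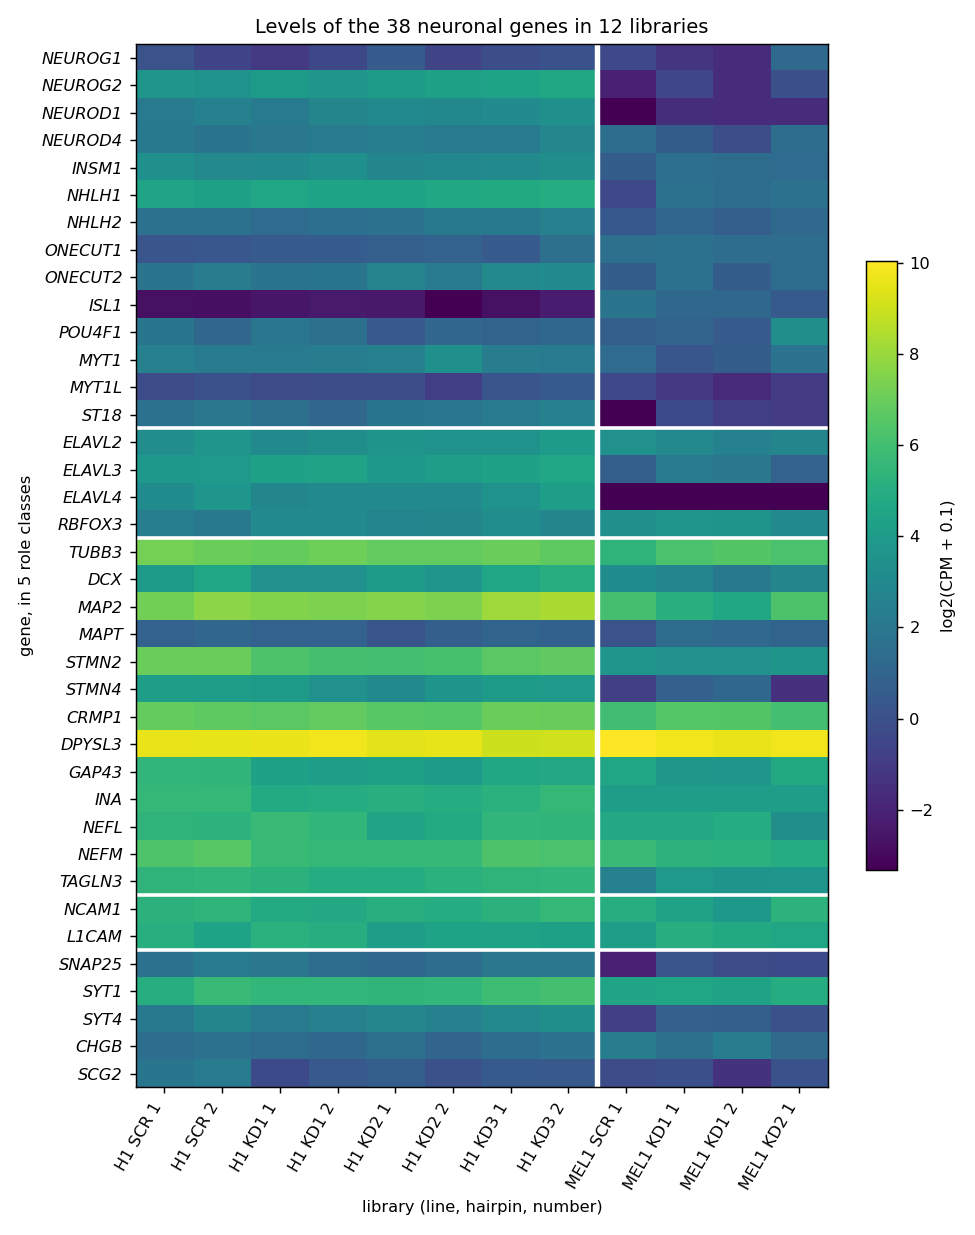
Level of each of the 38 genes (rows, in role classes separated by white lines) in each of the 12 libraries (columns, H1 left and MEL1 right of the thick line), as log2(CPM + 0.1). NEUROG2, NEUROD1, NHLH1, ELAVL4 and STMN4 are low across the 4 MEL1 libraries and higher in the 8 H1 libraries.

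Per kilobase of the longest coding transcript, cytoskeletal genes led in both lines. DPYSL3, a collapsin response mediator protein of growth cones that is also made outside neurons, ranked 1 of 38 with a mean level of 129 CPM per kb in H1 and 163 CPM per kb in MEL1. TUBB3, the neuron-specific tubulin, ranked 2 in each line with 62.8 and 35.0 CPM per kb. STMN2, a regulator of microtubule growth, ranked 3 in H1 at 42.1 CPM per kb and 10 in MEL1 at 5.15 CPM per kb. NEUROG2 ranked 13 of 38 in H1 at 7.25 CPM per kb and 33 of 38 in MEL1 at 0.200 CPM per kb.

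The first comparison asks how far neuronal genes differ by line with the hairpin held equal, averaging SCR, KD1 and KD2 of MEL1 against the same groups of H1. In MEL1, 27 of the 38 genes were lower and 4 were higher, whereas 49.1% of all tested genes were called (23.0% higher and 26.2% lower). The median log2 fold change was -1.01 over the 38 genes and -0.09 over all genes tested. In bulk RNA, fewer neuronal cells and less RNA per neuronal cell cannot be told apart.

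Among transcription factors, 9 of 14 were lower in MEL1 and 2 higher. NEUROG2 ranged from 11.1 to 24.5 CPM over the 8 H1 libraries, with a median of 15.2. In MEL1 it was 0.136 CPM with SCR, 0.614 and 0.230 with KD1, and 0.855 with KD2. The ranges lay far apart, a 38.4-fold lower level in MEL1 (log2 -5.26, SE 0.27, adjusted p 5.29e-08). NEUROD1, a differentiation factor downstream of the neurogenins, ranged from 4.38 to 10.4 CPM in H1 with a median of 6.96. It was at 0 in MEL1 SCR, 0.230 and 0.230 CPM in the KD1 libraries, and 0.225 CPM in KD2. Every MEL1 library was below every H1 library (log2 -6.75, SE 0.34, adjusted p 4.67e-08). The fitted value of NEUROD1 includes a group at 0 and is no exact fold. It was -4.83 without MEL1 SCR and -7.59 without MEL1 KD2, and the ratio of the line means was 40.5.

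NHLH1, expressed in newly born neurons, ran from 19.2 to 30.4 CPM in H1 (median 23.0). Its MEL1 levels were 0.681 CPM with SCR, 3.10 and 2.50 with KD1, and 3.15 with KD2, a 12.2-fold difference (log2 -3.61, SE 0.15, adjusted p 1.2e-08). ST18, a zinc finger relative of MYT1, ran from 1.99 to 5.78 CPM in H1 (median 3.61). In MEL1 it was at 0 with SCR, 0.691 and 0.459 CPM with KD1, and 0.427 CPM with KD2 (log2 -5.07, SE 0.41, adjusted p 1.95e-06). That fitted value includes a group at 0 and is no exact fold: it was -2.58 without MEL1 SCR and -6.06 without MEL1 KD2, and the ratio of the line means was 9.21. For NHLH1 it was -2.97 without MEL1 SCR. Neither gene overlapped between the lines. INSM1, which promotes the step from progenitor to neuron, ran from 6.87 to 10.2 CPM in H1 (median 8.17). Its MEL1 levels were 1.43 CPM with SCR, 2.81 and 2.55 with KD1, and 2.47 with KD2 (log2 -1.99, SE 0.17, adjusted p 2.39e-06).

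The other lower factors differed by less. NEUROD4, a further differentiation factor, ran from 3.41 to 7.16 CPM in H1 (median 4.37) and was 2.73, 1.46, 0.803 and 2.70 CPM in MEL1 SCR, KD1, KD1 and KD2 (log2 -1.06, SE 0.22). MYT1 ran from 4.21 to 10.2 CPM in H1 (median 4.79) and was 2.45, 1.07, 1.44 and 3.33 CPM in the MEL1 libraries in that order (log2 -1.39, SE 0.21). Both kept all MEL1 libraries below all H1 libraries. ONECUT2 ran from 3.38 to 8.53 CPM in H1 (median 4.65), against 1.43, 3.20, 1.44 and 2.50 CPM in MEL1 (log2 -1.07, SE 0.25). NHLH2 ran from 2.43 to 5.45 CPM in H1 (median 3.27), against 1.16, 2.02, 1.55 and 2.29 CPM (log2 -0.90, SE 0.19). Their ranges did not overlap either, but the call of NHLH2 was lost when all libraries were thinned to the smallest.

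A pair of factors went the other way. ISL1, a LIM homeodomain factor of motor and sensory neurons that also marks other lineages, was at 0 to 0.0992 CPM in H1 (median 0.0648). In MEL1 it was 3.48 CPM with SCR, 2.15 and 2.21 with KD1, and 1.28 with KD2 (log2 5.14, SE 0.45, adjusted p 3.18e-06), or 6.42 without the first H1 KD2 library. It was the only one of the 38 genes with all 4 MEL1 libraries above all 8 H1 libraries. ONECUT1 ran from 1.05 to 2.90 CPM in H1 (median 1.35) and was 2.93, 3.22, 2.67 and 2.68 CPM in MEL1 SCR, KD1, KD1 and KD2 (log2 1.07, SE 0.24, adjusted p 0.00307). Its ranges overlapped through 1 H1 library.

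NEUROG1, the sister of NEUROG2, stayed low in both lines. It ran from 0.379 to 1.33 CPM in H1 (median 0.745) and was 0.681 CPM in MEL1 SCR, 0.307 and 0.230 in KD1, and 2.25 in KD2. The line difference was 0.03 on the log2 scale (SE 0.38, adjusted p 0.975), so it was not detectable at these counts. POU4F1, a sensory neuron factor, and MYT1L were not called either. The MEL1 KD2 library held 9.42 CPM of POU4F1 against 1.35 to 1.87 CPM in the other MEL1 libraries.

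All 4 RNA-binding proteins were called between the lines, 3 of them lower in MEL1. ELAVL4, a neuronal stabiliser of messenger RNA, ran from 6.85 to 17.4 CPM in H1 (median 8.49) and was at 0 in all 4 MEL1 libraries. With a floor of 3 counts over the 4 libraries, its level was at least 388-fold lower in MEL1. Of 11595 genes at 5 CPM or more in all 8 H1 libraries, 17 were at 0 in all 4 MEL1 libraries. ELAVL3, its close relative, ran from 14.0 to 24.2 CPM in H1 (median 18.4) and was 1.57 CPM in MEL1 SCR, 4.32 and 4.02 in KD1, and 1.73 in KD2. Its difference was a log2 of -2.87 (SE 0.14, adjusted p 3.17e-08), with no overlap.

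ELAVL2, the family member that also occurs outside neurons, overlapped between the lines. It ran from 8.12 to 15.7 CPM in H1 (median 11.2) and was 10.6, 7.75, 5.77 and 6.68 CPM in MEL1 SCR, KD1, KD1 and KD2 (log2 -0.41, SE 0.16, adjusted p 0.048). The call held in 9 of 19 alternatives. RBFOX3, the splicing factor whose protein is the NeuN antigen, was higher in MEL1 (log2 0.66, SE 0.13, adjusted p 0.0018). It ran from 4.06 to 9.38 CPM in H1 (median 6.94) and was 10.4, 12.5, 11.8 and 8.12 CPM in MEL1; without the MEL1 SCR library the call was lost.

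Of the 13 cytoskeletal and growth cone genes, 11 were lower in MEL1 and 1 higher. STMN2 ran from 65.5 to 129 CPM in H1 (median 88.9) and was 12.3 CPM in MEL1 SCR, 10.8 and 10.9 in KD1, and 11.8 in KD2. That is a 7.46-fold lower level (log2 -2.90, SE 0.09, adjusted p 1.87e-09), with a spread among MEL1 libraries of 0.694 CPM (SD, n = 4). STMN4, its relative, ran from 8.37 to 17.9 CPM in H1 (median 14.7) and was 0.477, 1.59, 2.15 and 0.270 CPM in MEL1 SCR, KD1, KD1 and KD2 (log2 -4.40, SE 0.23). Both stathmins were far below H1 in every MEL1 library.

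Microtubule-linked genes differed less. TAGLN3 ran from 30.5 to 43.99 CPM in H1 (median 39.6) and was 5.72, 14.2, 12.1 and 12.9 CPM in the MEL1 libraries (SCR, KD1, KD1, KD2; log2 -1.88, SE 0.11). MAP2, the dendritic microtubule protein, ran from 144 to 324 CPM in H1 (median 186) and was 69.1, 35.0, 24.96 and 79.8 CPM in MEL1 (log2 -1.68, SE 0.14). DCX, the microtubule protein of migrating neurons, ran from 10.9 to 31.8 CPM in H1 (median 15.7) and was 8.79, 6.39, 4.19 and 6.72 CPM in MEL1 (log2 -1.10, SE 0.18). TUBB3 ran from 105 to 150 CPM in H1 (median 122) and was 41.7, 74.2, 87.6 and 73.3 CPM in MEL1 (log2 -1.01, SE 0.10). None of the 4 overlapped between the lines.

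Intermediate filament genes followed. INA ran from 28.4 to 47.8 CPM in H1 (median 35.3) and was 17.9, 17.2, 18.0 and 17.4 CPM in MEL1 SCR, KD1, KD1 and KD2 (log2 -1.02, SE 0.10). NEFL ran from 22.4 to 52.0 CPM in H1 (median 42.3) and was 26.9, 26.6, 31.0 and 9.72 CPM in MEL1 (log2 -0.91, SE 0.11). NEFM ran from 47.9 to 95.5 CPM in H1 (median 63.6) and was 50.3, 38.9, 36.9 and 31.1 CPM in MEL1 (log2 -0.62, SE 0.08). INA kept the lines apart, while NEFL and NEFM overlapped.

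CRMP1 ran from 90.4 to 133 CPM in H1 (median 109) and was 61.3, 92.1, 89.0 and 64.8 CPM in MEL1 SCR, KD1, KD1 and KD2 (log2 -0.54, SE 0.08). GAP43, the growth cone membrane protein, ran from 16.5 to 44.2 CPM in H1 (median 23.0) and was 24.0, 13.2, 12.7 and 27.9 CPM in MEL1 (log2 -0.25, SE 0.09, adjusted p 0.0355). Without the MEL1 SCR library the sign of GAP43 turned, to 0.04. DPYSL3 was higher in MEL1, at 1047, 870, 779 and 870 CPM, against 513 to 843 CPM in H1 with a median of 743 (log2 0.25, SE 0.08, adjusted p 0.0179). Its call was lost without MEL1 SCR and without MEL1 KD2. MAPT, which encodes tau, was not called, at 0.954 to 2.51 CPM in MEL1 and 1.03 to 2.03 CPM in H1.

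NCAM1 and L1CAM, adhesion molecules of axons, were called in neither direction. NCAM1, the more abundant of the pair, ran from 27.0 to 46.8 CPM in H1 (median 36.2) and was 32.0, 20.4, 13.9 and 39.1 CPM in MEL1 SCR, KD1, KD1 and KD2. L1CAM ran from 17.4 to 36.5 CPM in H1 and from 17.4 to 31.5 CPM in MEL1.

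Of the 5 synaptic and secretory genes, 4 were lower in MEL1. SYT1, the calcium sensor of transmitter release, ran from 32.4 to 69.0 CPM in H1 (median 45.7) and was 22.1, 23.3, 20.4 and 30.8 CPM in MEL1 SCR, KD1, KD1 and KD2 (log2 -0.84, SE 0.13). SYT4 ran from 4.05 to 9.91 CPM in H1 (median 6.31) and was 0.477, 1.64, 1.52 and 0.877 CPM in MEL1 (log2 -2.68, SE 0.24). SNAP25, part of the vesicle fusion machinery, ran from 2.12 to 4.57 CPM in H1 (median 3.45) and was 0.136, 1.05, 0.717 and 0.697 CPM in MEL1 (log2 -2.81, SE 0.29), or -1.82 without MEL1 SCR. These 3 did not overlap between the lines. SCG2, a granin of secretory granules, overlapped (log2 -1.17, SE 0.34, adjusted p 0.0151) and lost its call without MEL1 SCR. CHGB, another granin, was not called, at 2.38 to 4.73 CPM in MEL1 and 1.98 to 3.35 CPM in H1.

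Over all role classes, 21 of the 38 genes had every MEL1 library below every H1 library and 1 had every one above, against 13.0% and 12.3% of tested genes. Related genes moved as well. Of 31 tested further neurogenesis genes, 20 were lower in MEL1 and 5 higher. CELF3 (log2 -4.18), DPYSL5 (-2.32), EOMES (-3.81) and TBR1 (-4.68) had the smallest adjusted p. Of 20 transmitter and mature synapse genes, 13 were lower and 2 higher.

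Markers of other cell states moved with the line, and their part in the result was not tested. Of 18 neural progenitor genes 14 were lower in MEL1 and 0 higher; PAX6, a master regulator of forebrain and eye progenitors, was 238-fold lower. All 8 pluripotency markers were higher, POU5F1 by a log2 of 3.72 (SE 0.18). Of 8 neural crest and placode markers 7 were higher and 1 lower, their sum being 220 to 571 CPM in MEL1 and 178 to 264 CPM in H1. Of 6 tested cardiac and mesoderm markers HAND1 and TNNT2 were higher and 0 lower. Their list of 8 summed to 11.9 to 17.2 CPM in MEL1 and 4.21 to 15.8 CPM in H1. Of 6 tested hepatic and gut endoderm markers AFP and TTR were higher and ALB was lower. In the REST complex list, 4 of 10 genes were lower and 1 higher, with a median of -0.12.

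**Figure D2:**
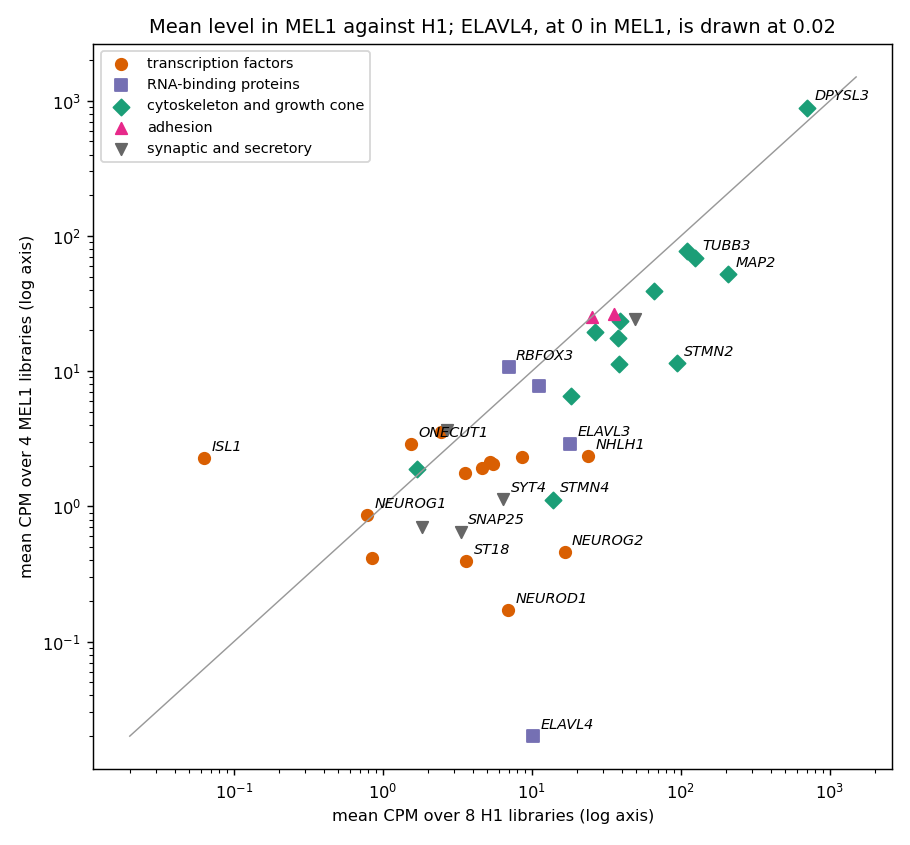
Mean CPM of each gene over the 4 MEL1 libraries against its mean over the 8 H1 libraries, both on log axes, with the symbol giving the role class and the line marking equal levels. NEUROG2, NEUROD1, ST18 and STMN4 lie well below the line, ISL1 lies above it, and ELAVL4, at 0 in MEL1, is drawn at 0.02.

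The second comparison asks what METTL14 knockdown changed in H1, averaging the 3 hairpins against SCR. GAP43, STMN2, NEFM, INA and SCG2 fell and RBFOX3 rose, 6 of 38 genes, while 7.16% of all tested genes were called (2.23% higher and 4.93% lower). Of the 5 fallen genes, 4 are cytoskeletal or growth cone genes and 1 is secretory. Among transcription factors edgeR called 0 of 14, with 2 at an unadjusted p under 0.05. Their median was 0.23 on the log2 scale, 10 of 14 being above 0, against 0.01 over all genes tested. Cytoskeletal genes had a median of -0.25, with 12 of 13 below 0.

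GAP43 was 44.2 and 42.0 CPM with SCR, 19.9 and 18.1 with KD1, 19.2 and 16.5 with KD2, and 26.0 and 26.4 with KD3. All 6 knockdown libraries lay below both controls, a 2.08-fold lower level (log2 -1.06, SE 0.10, adjusted p 0.000579). STMN2 was 128 and 129 CPM with SCR, 79.7 and 68.3 with KD1, 65.5 and 71.8 with KD2, and 98.2 and 108 with KD3. Again the groups did not overlap, and the level was 1.59-fold lower (log2 -0.67, SE 0.09, adjusted p 0.00345). The calls of GAP43 and STMN2 held in all 20 alternatives run.

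NEFM was 82.8 and 95.5 CPM with SCR, 53.0 and 47.9 with KD1, 48.4 and 48.3 with KD2, and 78.1 and 74.2 with KD3 (log2 -0.64, SE 0.09, adjusted p 0.00411). INA was 46.7 and 47.8 CPM with SCR, 28.4 and 31.1 with KD1, 33.6 and 31.1 with KD2, and 36.96 and 47.6 with KD3 (log2 -0.46, SE 0.11, adjusted p 0.0344). NEFM kept the groups apart, whereas 1 KD3 library of INA reached the control range. SCG2 was 3.51 and 4.23 CPM with SCR, 0.708 and 1.22 with KD1, 1.52 and 0.900 with KD2, and 1.29 and 1.24 with KD3. It was 3.39-fold lower with no overlap (log2 -1.76, SE 0.34, adjusted p 0.0163). RBFOX3 was 5.20 and 4.06 CPM with SCR, 8.37 and 8.70 with KD1, 6.31 and 6.94 with KD2, and 9.38 and 6.94 with KD3 (log2 0.74, SE 0.17, adjusted p 0.0302).

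Without the second H1 SCR library, only GAP43 and STMN2 of the 6 were called; SCG2 then stood at a log2 of -1.62, NEFM at -0.54, INA at -0.44 and RBFOX3 at 0.57. The calls of INA and RBFOX3 each held in 14 of 20 alternatives. Over the 38 genes, 5 had all 6 knockdown libraries below both controls and 2 had them above, against 11.7% and 8.61% of tested genes. The 5 were GAP43, STMN2, STMN4, NEFM and SCG2, and the 2 were RBFOX3 and ONECUT1.

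**Figure D3:**
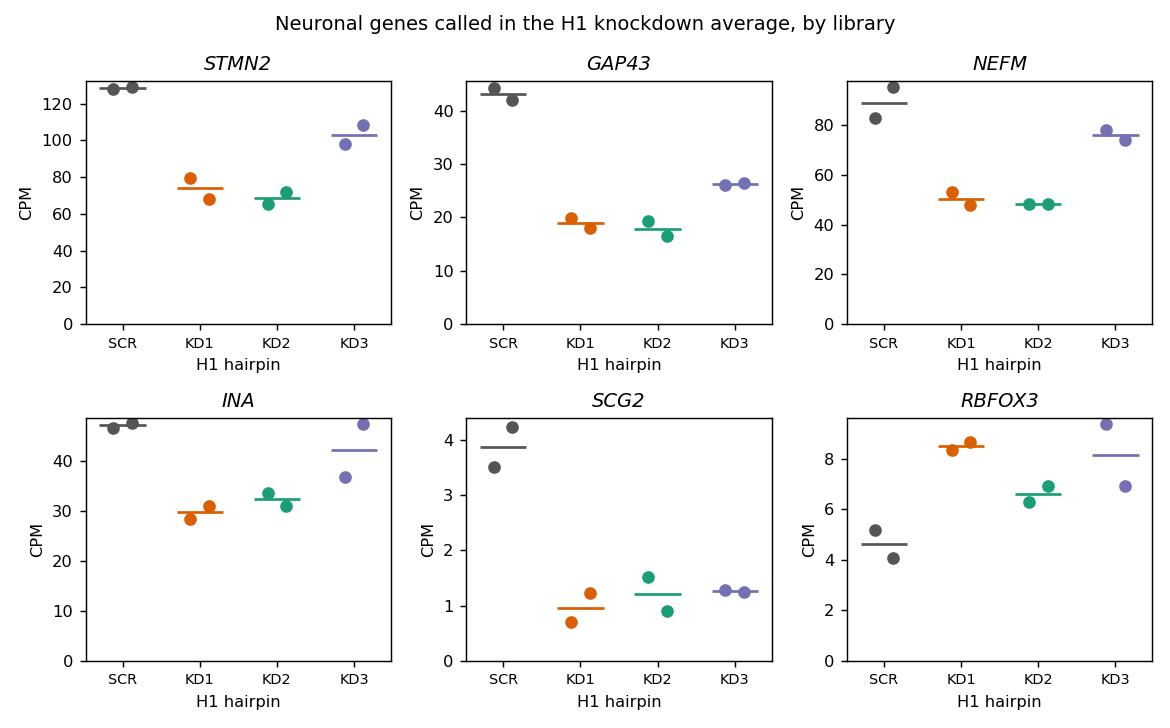
CPM of the 6 genes called in the H1 knockdown average, with 1 point per library, 2 libraries per hairpin and a bar at the mean of each pair; each axis starts at 0. GAP43, STMN2, NEFM and SCG2 have all knockdown points below both SCR points, and the KD3 points of STMN2 and NEFM lie nearer to SCR than those of KD1 and KD2.

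Proneural factors in H1 gave other values. NEUROG2 was 12.8 and 11.1 CPM with SCR, 15.3 and 12.8 with KD1, 15.1 and 19.9 with KD2, and 21.2 and 24.5 with KD3. The average was 0.58 on the log2 scale (SE 0.21) and did not pass the test (adjusted p 0.123); DESeq2, the fit without a filter and the fit of H1 libraries by themselves did call it. NEUROD1 was 4.38 and 5.75 CPM with SCR, 4.60 and 6.59 with KD1, 7.90 and 7.34 with KD2, and 8.46 and 10.4 with KD3 (0.54, SE 0.20, adjusted p 0.136).

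NEUROD4 stood at 4.18 and 3.41 CPM with SCR and at 4.02 to 7.16 CPM with the hairpins (median 4.54; log2 0.37, SE 0.26, adjusted p 0.433). NEUROG1 stood at 0.973 and 0.580 CPM with SCR and at 0.379 to 1.33 CPM with the hairpins (log2 -0.02, SE 0.41, adjusted p 0.993). Both overlapped their controls. NHLH1, the factor with the highest mean CPM, was 21.9 and 19.2 CPM with SCR and 21.1 to 30.4 CPM with the hairpins (log2 0.28, SE 0.14, adjusted p 0.249).

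Genes related to the list moved in both directions in H1. Of 31 further neurogenesis genes, MLLT11 (log2 -0.46) and TBR1 (-0.91), a factor of cortical glutamatergic neurons, fell. SOX4 (0.43, edgeR adjusted p 0.0465) and SOX11 (0.44, adjusted p 0.0492), which act in new neurons, rose, both near the threshold. Of 18 neural progenitor genes, 4 rose, among them SOX2 (0.46), LHX2 (0.65) and PAX6 (0.77), and FABP7 (-0.72), a radial glia gene, fell. Of 20 transmitter and mature synapse genes, CHGA, a granin, fell 3.99-fold and UCHL1 fell by 0.49. Across settings with all H1 libraries kept, 2 to 7 further neurogenesis, 4 to 7 progenitor and 2 to 5 transmitter and synapse genes were called. The calls of these lists also depended on single libraries. No REST complex gene of 10 was called by edgeR, with 3 at an unadjusted p under 0.05 and up to 2 called under other settings.

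Markers of other cells moved too, and their part was not tested. The crest markers FOXD3, SNAI2 and TFAP2B fell (log2 -1.47, -1.01 and -0.64), as did the pluripotency markers POU5F1, NANOG and ZFP42 (-1.13, -0.96 and -0.57). Averaged over the hairpins, the pluripotency list did not fall as a whole, with 4 of 8 markers above 0 and 4 below. Its sum was 1210 to 1302 CPM in the SCR libraries and 1189 to 1408 CPM in the knockdown libraries. The hairpins differed for NANOG, which was higher with KD3 than with KD1 by a log2 of 2.23 (SE 0.31, adjusted p 0.00594). TDGF1 (2.56) and DPPA4 (0.62) were also called higher with KD3 than with KD1. Against SCR, 4 of the 8 pluripotency markers were called lower with KD1 (list median -0.65), 0 with KD2 (-0.13) and 1 with KD3 (0.34). The shares of all tested genes called lower were 6.83%, 0.851% and 1.79%. Crest markers summed to 234 to 256 CPM in the SCR libraries and to 178 to 264 CPM in the knockdown libraries. Of the endocrine markers SST fell (-2.26), its list summing to 9.43 to 15.9 CPM in SCR libraries and to 2.61 to 8.77 CPM in knockdown libraries.

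The third comparison asks whether the hairpins acted alike in H1; they share the SCR libraries, so their values are set side by side. KD1 changed 6 of 38 genes, 1 higher and 5 lower, against 11.1% of all tested genes (4.25% higher and 6.83% lower). KD2 changed 3, all lower, against 1.54% (0.851% lower). KD3 changed 2, both lower, against 2.98% (1.79% lower). The balance with KD3 depended on the setting: 7 genes were higher and 3 lower without a filter, 6 and 2 with DESeq2, 6 and 2 with the GC and length trend removed, and 2 and 0 without the second H1 SCR library. GAP43 fell with each, by 1.18, 1.27 and 0.72 on the log2 scale for KD1, KD2 and KD3 (SE 0.13 each). STMN2 fell with KD1 and KD2 (-0.80 and -0.90, SE 0.12 each), and NEFM likewise (-0.82 and -0.88, SE 0.11 and 0.12). INA passed the test with KD1 (-0.66) and stood at -0.55 with KD2 and -0.16 with KD3. RBFOX3 passed with KD1 (0.88) and stood at 0.52 and 0.82 with KD2 and KD3. SCG2, 3.999-fold lower with KD1, was called there and stood at -1.67 and -1.61 with KD2 and KD3. DPYSL3 passed with KD3 (-0.53, SE 0.12, adjusted p 0.0365), in 12 of 20 alternatives.

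A test of unequal effects called 5 genes, all cytoskeletal (DCX, STMN2, DPYSL3, NEFL and NEFM), against 3.54% of all tested genes. STMN2 was higher with KD3 than with KD1 by a log2 of 0.48 (SE 0.12, adjusted p 0.0419) and than with KD2 by 0.59 (SE 0.12, adjusted p 0.0422), calls that held in 7 and 8 of 20 alternatives. NEFM was higher with KD3 than with KD1 by 0.59 (SE 0.11, adjusted p 0.0192) and than with KD2 by 0.66 (SE 0.11, adjusted p 0.0279). Both lay nearer to SCR with KD3. The backgrounds were 4.63% for KD3 against KD1 (2.61% higher and 2.01% lower), 1.01% for KD3 against KD2 and 0.851% for KD2 against KD1.

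DCX was 15.6 and 23.9 CPM with SCR, 10.9 and 10.9 with KD1, 15.9 and 12.6 with KD2, and 23.9 and 31.8 with KD3. KD3 exceeded KD1 by a log2 of 1.36 (SE 0.26, adjusted p 0.0182), while edgeR called no hairpin against SCR (adjusted p 0.0533 for KD1); for KD1 DCX was called lower in 7 of 20 alternatives, DESeq2 among them. NEFL was 41.5 and 39.0 CPM with SCR, 52.0 and 43.8 with KD1, 22.4 and 28.97 with KD2, and 43.9 and 43.0 with KD3. It was lower with KD2 than with KD1 by a log2 of -0.90 (SE 0.15, adjusted p 0.0265), and higher with KD3 than with KD2 by 0.76 (SE 0.15, adjusted p 0.0458), the latter in 6 of 20 alternatives. DPYSL3 was 780 and 746 CPM with SCR, 796 and 843 with KD1, 688 and 740 with KD2, and 513 and 546 with KD3. Only the KD3 pair was low, below KD1 by a log2 of -0.63 (SE 0.12, adjusted p 0.0158).

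Across the list, 20 of 38 genes were higher in both KD3 libraries than in all 4 KD1 and KD2 libraries and 1 was lower, against 12.1% and 11.2% of tested genes. They included 7 of 14 transcription factors, among them NEUROG2, NEUROD1 and NHLH1. Against SCR, NEUROG2 stood at 0.24, 0.56 and 0.94 on the log2 scale for KD1, KD2 and KD3, and NEUROD1 at 0.14, 0.59 and 0.90. edgeR called 0 of 14 factors with KD3 (NEUROG2 adjusted p 0.0702), with 6 at an unadjusted p under 0.05. In 6 of 20 alternatives at least 1 factor was called: NEUROG2 and NEUROD1 with DESeq2, without a filter (ONECUT2 too) and with the GC and length trend removed, and NEUROG2 with H1 libraries by themselves and without either MEL1 KD1 library. Neither passed the edgeR test of unequal hairpin effects (adjusted p 0.241 and 0.198), though NEUROG2 did in the fit without a filter. METTL14 itself stood at -1.74, -1.18 and -1.71 for KD1, KD2 and KD3.

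Of 31 further neurogenesis genes 6 were higher with KD3 than with KD1 and 0 lower, among them SOX4 (log2 0.90), MLLT11 (0.62), EBF2 (1.51) and KIF5C (0.66). Of 18 progenitor genes 6 were higher and 1 lower, among them ZIC1 (1.72), FABP7 (1.22), HMGA2 (0.83) and SOX1 (1.32). The sum over 8 crest markers was 178 to 179 CPM with KD1 and 215 to 264 CPM with KD3.

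**Figure D4:**
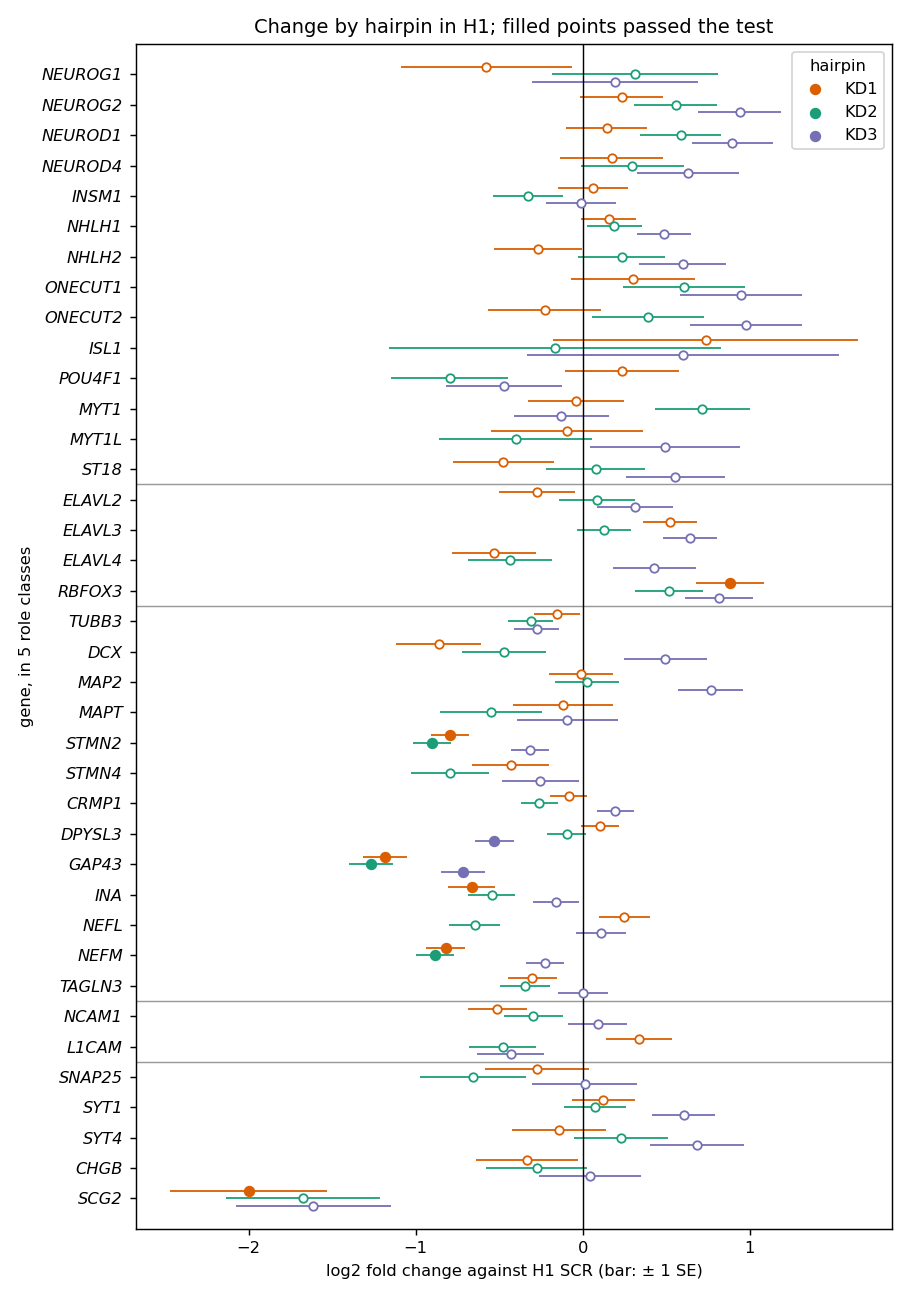
Log2 fold change against H1 SCR for each gene (rows, in role classes separated by lines) and each hairpin (colours), with bars of 1 standard error and filled points for changes past the threshold. The KD3 points of NEUROG2, NEUROD1 and DCX lie to the right of those of KD1, and GAP43 is filled for all 3 hairpins.

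The fourth comparison asks what knockdown changed in MEL1, whose control is a single library assumed to vary like the other groups. NHLH1, ST18, TUBB3 and TAGLN3 were higher and NEFM was lower with knockdown, 5 of 38 genes against 4.45% of all tested genes (2.93% higher and 1.51% lower). NHLH1 was 0.681 CPM with SCR and 3.10, 2.50 and 3.15 CPM in the 3 knockdown libraries (log2 2.12, SE 0.35, adjusted p 0.0155). ST18 was at 0 with SCR and 0.691, 0.459 and 0.427 CPM with knockdown, at least 2.57-fold higher by the floor of 3 counts in the control library. The call of ST18 held in 13 of 18 alternatives and was lost with DESeq2, when thinned, and without the first MEL1 KD1 library or either H1 KD2 library. Both stayed far below their H1 levels.

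TUBB3 was 41.7 CPM with SCR, 74.2 and 87.6 with KD1, and 73.3 with KD2 (log2 0.88, SE 0.17, adjusted p 0.0248). With a trend on transcript GC content and length removed it was 0.40 and no longer called. TAGLN3 was 5.72 CPM with SCR, 14.2 and 12.1 with KD1, and 12.9 with KD2 (log2 1.19, SE 0.22, adjusted p 0.0205). NEFM was 50.3 CPM with SCR, 38.9 and 36.9 with KD1, and 31.1 with KD2 (log2 -0.55, SE 0.13, adjusted p 0.0451), a call kept in 7 of 18 alternatives. Of the genes that fell in H1, STMN2 gave -0.12 (adjusted p 0.71) and INA -0.03 (adjusted p 0.962). SCG2 was 0.750 CPM with SCR, 0.844 and 0.287 with KD1, and 0.922 with KD2, and was not called. RBFOX3, which rose in H1, was 10.4 CPM with SCR, 12.5 and 11.85 with KD1, and 8.12 with KD2, and was not called. GAP43 was 24.0 CPM with SCR, 13.2 and 12.7 with KD1, and 27.9 with KD2 (-0.34, adjusted p 0.231), so that both KD1 libraries lay below the control and the KD2 library above it. Without the KD2 library GAP43 was called lower, and the count of called genes rose from 5 to 11.

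NEUROG2 in MEL1 was 0.136 CPM in the control and 0.230 to 0.855 CPM in the knockdown libraries (adjusted p 0.17). NEUROD1, at 0 with SCR and 0.225 to 0.230 CPM with knockdown, did not pass the test either. By the floor of 3 counts in the single control library its bound was 1.12-fold, which leaves out the spread of the knockdown libraries. Across the list, 15 genes had all 3 knockdown libraries above the control and 8 had them below, against 31.6% and 25.7% of tested genes. The factor median was 0.78, or 0.47 with NEUROD1 and ST18 at their bounds, against 0.07 over all genes. The MEL1 SCR library was the shallowest by far; thinned to its depth, the test called 3 genes. Of 31 tested further neurogenesis genes 2 were called, CELF3 (log2 3.09) and DPYSL5 (0.66), both higher. Of 18 neural progenitor genes HES5 was called higher, and SOX2 (-0.63) and FABP7 (-0.87) fell. The fitted value of HES5, 9.47 (SE 1.78), rests on the single shallow control library and is no exact fold. Of 20 transmitter and mature synapse genes GAD2 (3.02) and VAMP2 (0.71) rose. In the REST complex list of 10, CTDSP1 (0.91) rose and HDAC2 (-0.60) fell. Markers of other cells moved as well, and their part was not tested. The pluripotency markers ZFP42 (-1.05) and DPPA4 (-0.57) fell, their list summing to 3519 CPM in the control and 2347 to 3987 CPM with knockdown. Crest markers summed to 571 CPM and hepatic and gut markers to 15.5 CPM in the KD2 library, against 220 to 303 CPM and 0.767 to 4.98 CPM in the other MEL1 libraries.

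Whether knockdown acted differently by line was tested for KD1 and KD2 together. TUBB3 (log2 1.12, SE 0.21, adjusted p 0.0473) and TAGLN3 (1.51, SE 0.25, adjusted p 0.0323) differed, 2 of 38 genes against 0.598% of all tested genes. TUBB3 in H1 was 150 and 132 CPM with SCR, 117 and 136 with KD1, 113 and 114 with KD2, and 128 and 105 with KD3. TAGLN3 in H1 was 41.1 and 43.99 CPM with SCR, 38.2 and 30.9 with KD1, 30.5 and 36.3 with KD2, and 41.4 and 43.7 with KD3. Both rose in MEL1 and were not called in H1. The median difference was 0.53 over the 38 genes and 0.11 over all genes, and GAP43 (0.89, adjusted p 0.0638) and NHLH1 (1.95, adjusted p 0.052) missed the threshold. The call of TUBB3 held in 8 of 18 alternatives and that of TAGLN3 in 14; both were lost without either H1 SCR library and without either H1 KD1 library.

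**Figure D5:**
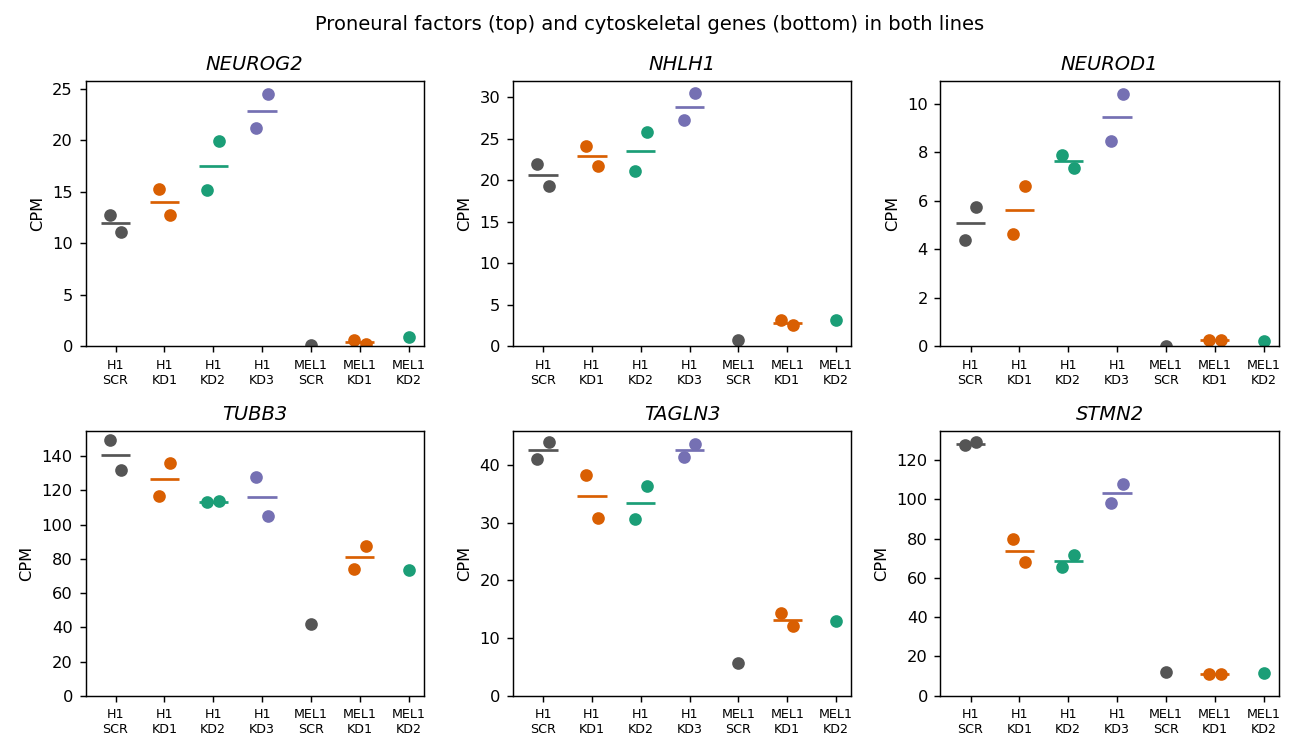
CPM of 3 transcription factors (top) and 3 cytoskeletal genes (bottom) by line and hairpin, with 1 point per library and a bar at the mean of groups with 2 libraries; each axis starts at 0. TUBB3 and TAGLN3 are lowest in MEL1 SCR, and NEUROG2 and NEUROD1 lie near 0 throughout MEL1.

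Over both lines together, with the line as a covariate, edgeR called 0 of 38 genes and 0.213% of all tested genes (0.0562% higher and 0.157% lower). At an unadjusted p under 0.05 there were 10, and DESeq2 called 4, all lower: GAP43, NEFM, SCG2 and STMN2. On the log2 scale GAP43 stood at -0.85 (SE 0.22, adjusted p 0.105), SCG2 -1.37 (SE 0.36, adjusted p 0.105), NEFM -0.58 (SE 0.16, adjusted p 0.113) and STMN2 -0.50 (SE 0.15, adjusted p 0.141). Of the factors, NEUROG2 stood at 0.73 (SE 0.31, adjusted p 0.263) and NHLH1 at 0.60 (SE 0.23, adjusted p 0.236). The model of 7 group means, which takes its spread only from libraries of a group, called 9 genes, 5 higher and 4 lower.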

How the data were processed

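Total RNA libraries were stranded, per the labels' protocols, and read paired-end, per the series' design text. The authors deposited estimated counts per Ensembl gene, and the submitters' processing notes name fastp and kallisto. Build, annotation and strand setting are not given in the sources used here; overlapping and antisense genes are therefore uncertain. Symbols came from a name table holding 59243 of 65969 identifiers, and gene models from GENCODE 29.

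Estimated counts were rounded and filtered (filterByExpr, 7 groups, 24898 genes). They were scaled by TMM and tested with robust quasi-likelihood F-tests of edgeR 4.0.16 under R 4.3.3. P-values were Benjamini-Hochberg adjusted over all tested genes and called under 0.05. A model of 7 group means served all comparisons but that over both lines, which had line as covariate. Standard errors are the log2 fold change over the root of F. Alternatives were other scalings, no filter, DESeq2 1.42.0, a non-robust fit, GC and length correction, thinning, H1 by itself and leaving out each library.

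The members and lists were chosen with earlier results of these data known. Named were members called anywhere, the most abundant of each class, NEUROG1, NEUROG2, NEUROD1 and NEUROD4, and at most 4 called genes per other list by smallest adjusted p. Exceptions, chosen after their values were seen, are the marker genes and single members named for an overlap.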

Additional observations from a re-analysis of the deposited data

Results flagged for a closer look

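Among the 6 H1 knockdown libraries, 1 library stood apart from the rest for 3 of 32 results tested in this way, where chance gives about 1 in 20. The gap as a share of the range was 0.659 for NEUROD4 (the second KD3 library at 7.16 CPM, the others at 4.02 to 5.09 CPM), 0.724 for ONECUT1 (the same library at 2.90 CPM, the others at 1.32 to 1.75 CPM) and 0.731 for MYT1 (the second KD2 library at 10.2 CPM, the others at 4.21 to 5.82 CPM). The limit for 6 samples is 0.625.

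The knockdown effect differed between the lines by a log2 of 1.12 for TUBB3 and 1.51 for TAGLN3, MEL1 minus H1. Hairpins differed in H1 for DCX by 1.36 (KD3 minus KD1), for STMN2 by 0.48 (KD3 minus KD1) and 0.59 (KD3 minus KD2), and for DPYSL3 by -0.63 (KD3 minus KD1). For NEFL the difference was -0.90 (KD2 minus KD1) and 0.76 (KD3 minus KD2), and for NEFM 0.59 (KD3 minus KD1) and 0.66 (KD3 minus KD2).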

How the results depend on the processing

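No paired analysis was possible because the labels carry no replicate numbers. The count of the 38 genes called between MEL1 and H1 stayed within 1.5 times of 31 in every alternative; GAP43 alone changed sign, at 0.04 without the MEL1 SCR library, and ranged down to -0.70 without MEL1 KD2. Over both lines the count was 4 with DESeq2, 9 with group means and 0 to 1 when a library was left out. For the H1 average it was 2 to 6 when a library was left out, and for KD1 3 to 8. For KD2 it was 7 without a filter, 5 with DESeq2 and 6 with GC and length trend removed. For KD3 it was 10 without a filter, 8 with DESeq2, 8 with the trend removed, 5 with H1 libraries by themselves, 1 when thinned, and 0 to 5 when a library was left out. Unequal hairpin effects numbered 14 without a filter, 11 with DESeq2, 9 with the trend removed, and 0 to 7 when a library was left out. For MEL1 the count was 8 without a filter, 3 when thinned and 3 to 11 when a library was left out. For the line difference it was 1 with median-of-ratios scaling, 1 with upper-quartile scaling, 7 without a filter, 4 with DESeq2, 1 with the non-robust fit, 7 with the trend removed, and 0 to 4 when a library was left out. The causes were not tested. Without MEL1 SCR the MEL1 average and line difference could not be fitted; without MEL1 KD2 they rest on KD1. Where a group was left with 1 library, it was assumed to vary like the others.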
